A study of Mus musculus with 16 samples.

Results

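Mbnl1, Mbnl2, Celf1 and Sf1 encode RNA-binding proteins that choose or mark splice sites, and their own transcripts were examined here for crosslinking to PGC-1α. Of 13397 genes with at least 1 cluster in the series, these are 4. A cluster was assigned to a gene when its midpoint lay inside the gene's GENCODE M21 bounds on the same strand of the mouse mm10 build. The 8 immunoprecipitated libraries held 1331383 clusters, of which 2342 lay in these genes. The genes were taken up with their peaks in these data known, so the presence of peaks in them is a description and was given no test.

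The proteins act at different steps of splicing. MBNL1 and MBNL2, the muscleblind-like proteins, are zinc finger proteins that bind pre-mRNA near alternative exons and switch many of them between fetal and adult forms. CELF1, a protein with RNA recognition motifs, binds GU-rich RNA, acts opposite to MBNL proteins on many exons and also affects mRNA decay; both families are known from myotonic dystrophy. SF1, which belongs to neither family, is the branch point binding protein that marks introns for the first steps of spliceosome assembly. PGC-1α, encoded by Ppargc1a, is a transcriptional coactivator of the fasting response in liver that carries RNA-binding domains of its own.

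Binding was measured by seCLIP, where RNA is crosslinked to protein in the cell by ultraviolet light, immunoprecipitated with it and sequenced from 1 end. The cells were freshly isolated primary hepatocytes of C57BL/6J mice, cultured in dishes, held overnight in starvation medium and given 200 nM glucagon, the fasting hormone of the pancreas, for 3 h. Control cells are labelled untreated, and the labels give 1 culture protocol for all samples. Each treatment was sampled as an upper and a lower band, with 2 replicates of each, which gives 4 groups of 2 libraries. The antibody of all 8 libraries is labelled PGC-1a IP, and 8 inputs without antibody are also listed. The labels do not say whether replicates came from separate animals or cultures, so p-values describe the spread among the libraries at hand, and that spread may be technical.

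A cluster is a stretch of piled-up reads with a log2 fold over input and a −log10 p-value, both the authors' values. A cluster is called an enriched peak below where both values are 3 or more. The libraries held 26279 to 260814 clusters and 979 to 7603 enriched peaks, and their read depth is unknown. The smallest was glucagon lower band replicate 1, which held 31 of the 2342 clusters and none of the enriched peaks in these 4 genes, against 97629 clusters in the next smallest library. The 8 hepatocyte markers analysed all had clusters, 304 to 619 in each library. The planned list of hepatocyte markers was longer. Of the other cell types, 1 of 6 Kupffer cell, 1 of 5 endothelial, 1 of 5 stellate cell and 2 of 5 cholangiocyte markers had any. Their highest sums per library were 8, 1, 4 and 12 clusters, and the Kupffer cell gene Clec4f, the endothelial gene Pecam1, the stellate cell gene Lrat and the cholangiocyte gene Krt19 had 0. In such data, less RNA of a gene and less binding per RNA cannot be told apart.

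The 4 transcripts were widely covered by clusters but few clusters were enriched over input. Of the 2342 clusters, 33 were enriched peaks, or 1.41% (exact Clopper-Pearson 95% interval 0.972 to 1.97%, counting error only). Over all clusters of the series the share was 2.70%. Without glucagon lower band replicate 1, the 4 genes had 33 enriched peaks among 2311 clusters, or 1.43%. A list of reproducible peaks deposited for each group held 7 peaks in these genes among 8478 in all, at least 1 per gene. Among the 3628 genes with 100 or more clusters, 29.1% held such a peak.

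Mbnl2 had the most of both, 951 clusters and 17 enriched peaks in 6 libraries, or 1.79% of its clusters. Mbnl1, a gene of similar length, had 719 clusters and only 2 enriched peaks in 2 libraries, a share of 0.278%. Celf1 had 535 clusters and 9 enriched peaks in 5 libraries, a share of 1.68%. Sf1, the shortest of the 4, had 137 clusters and 5 enriched peaks in 4 libraries, a share of 3.65%. The median over the 3628 genes with 100 or more clusters was 0.581%. A lower share than that of Mbnl1 was seen in 40.7% of those genes, than that of Celf1 in 70.2%, than that of Mbnl2 in 71.5%, and than that of Sf1 in 83.5%.

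**Figure D1:**
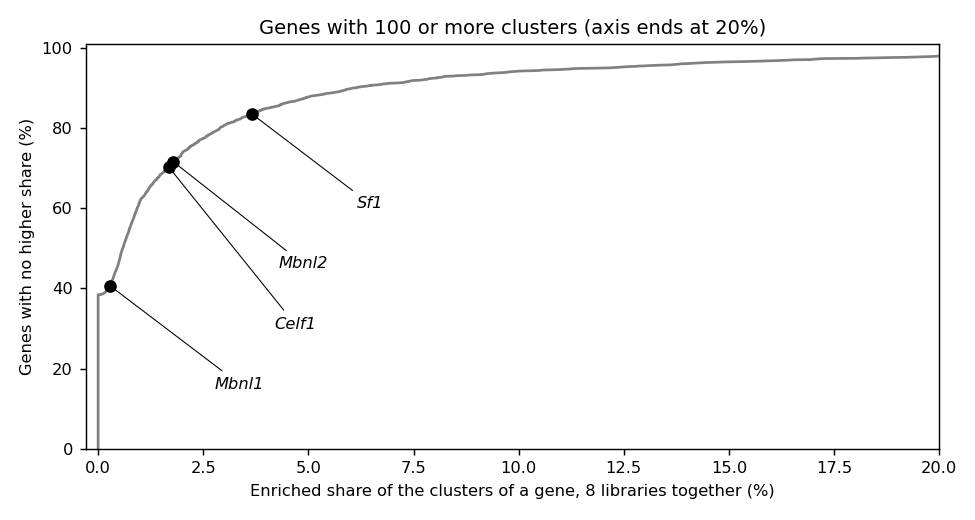
Cumulative distribution over 3628 genes of the enriched share of a gene's clusters (x axis, percent, all 8 libraries together) against the percentage of genes with no higher share (y axis), with the 4 genes marked. Sf1 lies highest at 3.65%, Mbnl2 and Celf1 lie close together at 1.79% and 1.68%, and Mbnl1 lies at 0.278%, below the median gene.

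The enriched peaks lay in introns or a 5′ UTR, and each gene had its own position for them. None of the 33 was placed in coding sequence or a 3′ UTR, where 23 and 51 clusters lay in Mbnl1, 16 and 26 in Mbnl2, 41 and 84 in Celf1, and 22 and 28 in Sf1. The share of enriched peaks in these regions over the series was not counted. With so few enriched peaks their absence there is not read as a trait of the genes. One listed peak lies in an annotated exon, so its sequence can be read from the GENCODE M21 transcripts. This is the Sf1 peak at chr19:6364587-6364702, in the 5′ UTR exon chr19:6364557-6364706 of transcript ENSMUST00000155973.1. The 30 bases around its midpoint, chr19:6364630-6364659 on the plus strand of GRCm38 (mm10), are shown because no other listed peak lies in an annotated exon. The peak begins 217 nt after the end of another annotated first exon, so spliced RNA of other transcripts need not contain it. The capital letter marks the midpoint, base 6364644, by which the peak was placed.
Sf1 5′ UTR: tttggaagaagccaCctgttgccccctgag
The whole peak of 116 bases has a GC content of 58.6%. The other listed peaks are intronic in every transcript, and their sequences are not given here.

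**Figure D2:**
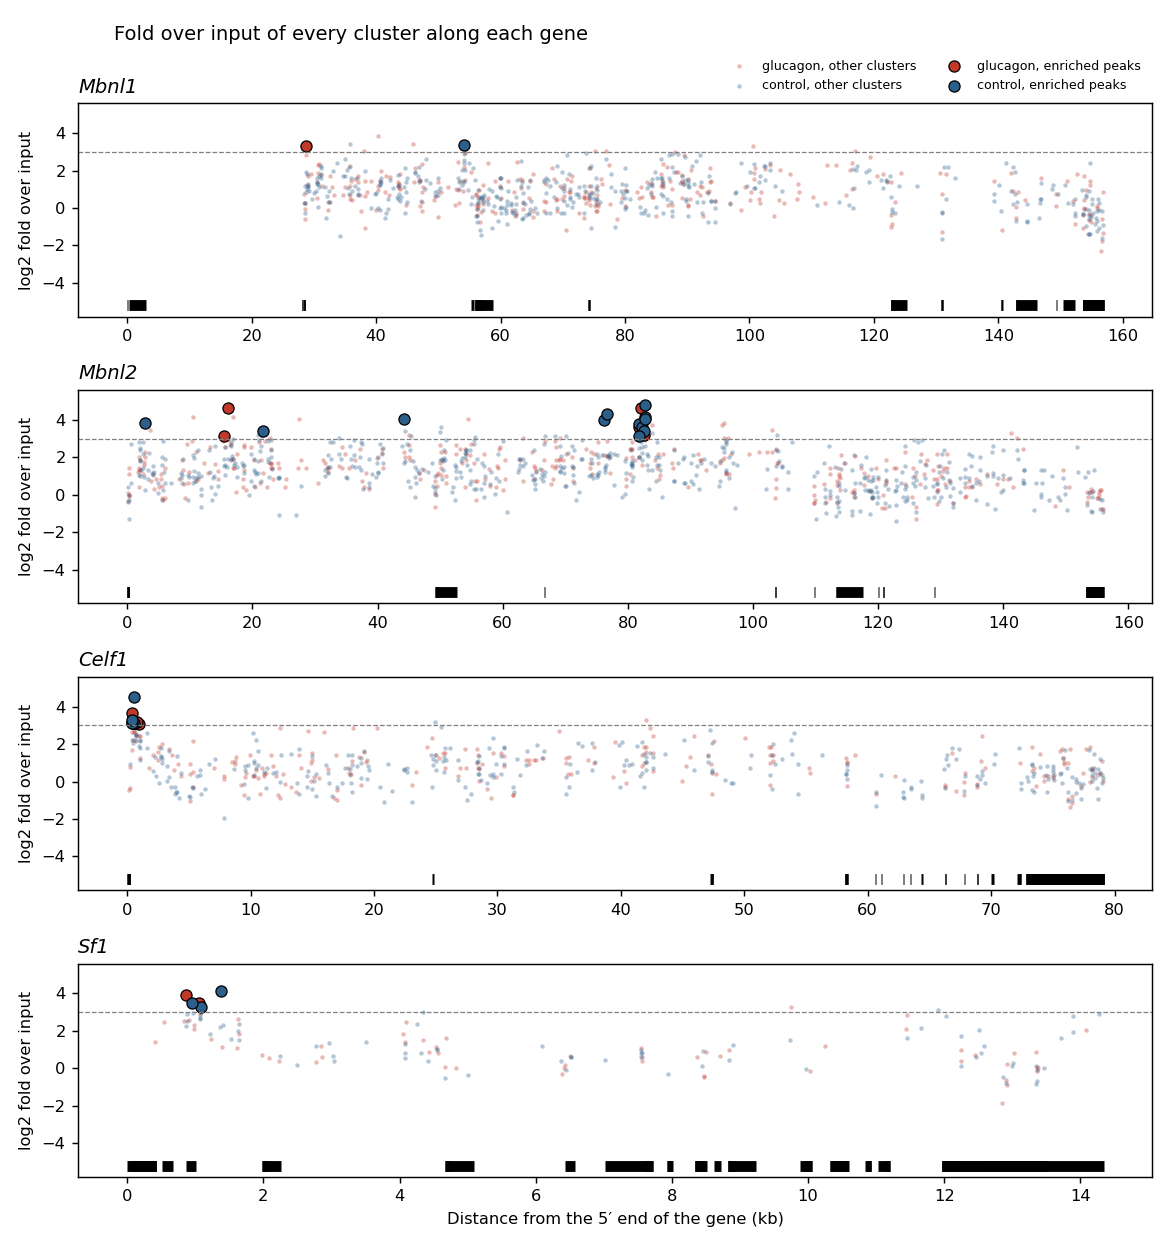
Log2 fold over input (y axis) of every cluster of the 8 libraries by distance from the gene's 5′ end (x axis, kb), with enriched peaks as large outlined points, glucagon in red and control in blue, annotated exons as black blocks, and the fold threshold of 3 dashed. Enriched peaks of Celf1 and Sf1 gather at the 5′ end, those of Mbnl2 around 82 kb into the gene, and the 2 of Mbnl1 lie apart.

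In Celf1 the enriched peaks were confined to the start of the first intron in the libraries analysed. The gene spans 79.1 kb at chr2:90940382-91019497 on the plus strand (ENSMUSG00000005506.16). All 9 enriched peaks lay within 1 kb of its 5′ end, where 30 of its 535 clusters lay, or 5.61%. No cluster outside that stretch was enriched. In the 1 kb at chr2:90940702-90941701, which holds them all, the 32 clusters had a median log2 fold of 2.48, against 0.65 for the other clusters of the gene. This window was chosen by its enriched peaks and its median is a description. With the log2 fold threshold lowered to 2, Celf1 had 22 enriched peaks, of which 19 lay within 1 kb of the 5′ end and 21 within 2 kb.

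The 9 peaks of Celf1 fell into 4 sites, a site being a run of overlapping enriched peaks of any library. The first, chr2:90940702-90940837, begins 61 nt after the end of the first exon and was enriched in 4 libraries. Its log2 fold over input was 1.67 and 3.66 in glucagon upper band replicates 1 and 2 and 2.65 in glucagon lower band replicate 2, with no cluster in glucagon lower band replicate 1. In control libraries it was 3.28 and 2.24 in the upper band and 3.14 and 3.14 in the lower band. The 2 treatments overlapped, and the library with the highest fold was a glucagon one.

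The second Celf1 site, chr2:90940894-90941006, was enriched in 3 libraries. Its log2 fold was 3.12 and 2.66 in the glucagon upper band and 2.65 in glucagon lower band replicate 2, again with no cluster in glucagon lower band replicate 1. In control libraries it was 2.78 and 2.20 in the upper band and 3.14 and 4.52 in the lower band. The −log10 p reached 3 in all 7 libraries with a cluster, at 3.18 to 9.81, so the fold threshold decided which of them counted. The other two sites, chr2:90941158-90941226 and chr2:90941304-90941363, were enriched in glucagon upper band replicate 2 alone, with log2 folds of 3.18 and 3.10. Clusters overlapped them in 4 and 5 libraries, at log2 folds of 2.49 to 3.47 and 1.80 to 3.10.

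In the authors' deposited table for the control lower band, Celf1 had peaks at chr2:90940704-90940769 and chr2:90940894-90940987, with log2 folds of 3.24 and 3.88. The other 3 deposited lists held no Celf1 peak. Both places nonetheless carried clusters in glucagon and in control libraries, as the values above show.

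**Figure D3:**
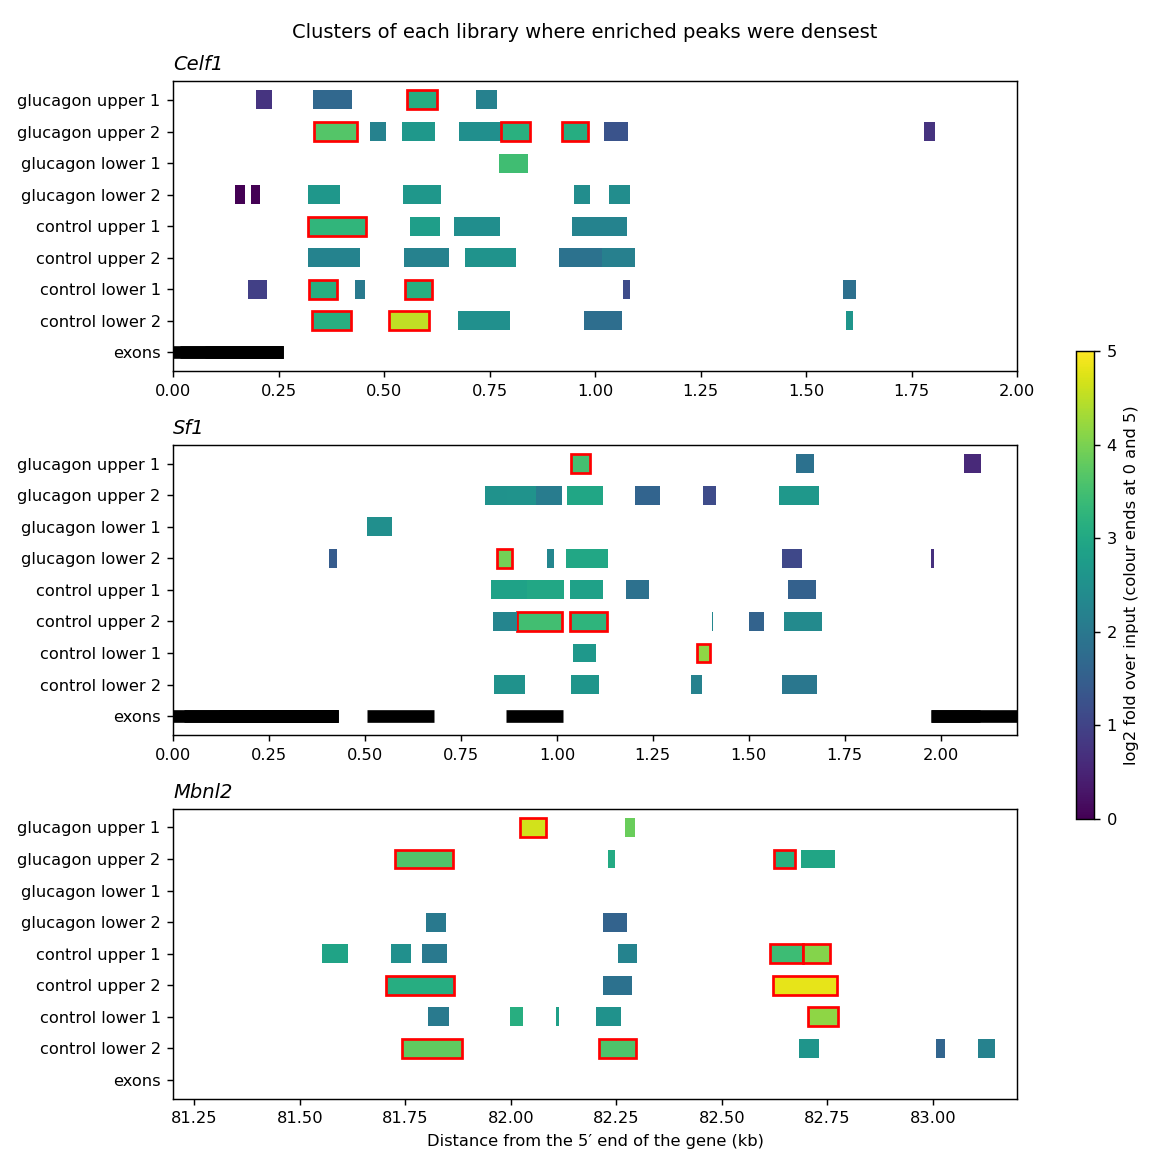
Clusters of each library (rows, glucagon above control) by distance from the gene's 5′ end (x axis, kb) in the stretches of Celf1, Sf1 and Mbnl2 with most enriched peaks, coloured by log2 fold over input, with enriched peaks outlined in red and exons as black blocks. The same places carried clusters in both treatments, outlined in some libraries only, and glucagon lower band replicate 1 was empty or held 1 cluster there.

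The enriched peaks of Sf1 also lay near the 5′ end, in a compact gene. It spans 14.3 kb at chr19:6363690-6378030 on the plus strand (ENSMUSG00000024949.17). All 5 enriched peaks lay within 2 kb of its 5′ end, where 33 of 137 clusters lay, or 24.1%, and 2 of them within 1 kb. The 29 clusters at chr19:6364535-6365534 had a median log2 fold of 2.55, against 0.68 for the rest of the gene, in a window that was again chosen by its enriched peaks. With the log2 fold threshold at 2, Sf1 had 21 enriched peaks, of which 19 lay within 2 kb.

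The Sf1 site with the most libraries, chr19:6364723-6364820, lies just after the exon whose sequence is shown above. It begins 17 nt after the end of that exon, the first exon of 1 annotated transcript. Its log2 fold was 3.50 and 2.96 in the glucagon upper band and 2.99 in glucagon lower band replicate 2, with no cluster in glucagon lower band replicate 1. In control libraries it was 2.85 and 3.26 in the upper band and 2.67 and 2.61 in the lower band. All 7 values lay close to the threshold of 3 and 2 exceeded it, while the −log10 p was 4.17 to 12.7 in all 7.

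The listed peak in the 5′ UTR exon had a log2 fold of 2.57 in glucagon upper band replicate 2 and 2.30 in glucagon lower band replicate 2, with no cluster in the 2 other glucagon libraries. In control libraries it was 2.98 and 3.49 in the upper band, 2.55 in lower band replicate 2, and absent from lower band replicate 1. Only control upper band replicate 2 passed both thresholds. In the authors' deposited table for the control upper band this peak had a log2 fold of 3.13 and a −log10 p of 7.20. In the authors' deposited table for the glucagon upper band, Sf1 had the peak chr19:6364727-6364776 instead, with a log2 fold of 3.37 and a −log10 p of 10.2. The 2 remaining sites, chr19:6364535-6364573 and chr19:6365056-6365088, were enriched in 1 library each, glucagon lower band replicate 2 and control lower band replicate 1, with log2 folds of 3.93 and 4.14.

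In Mbnl2 most enriched peaks lay deep in an intron, far from any annotated exon, as did most of its clusters. The gene spans 156.0 kb at chr14:120275669-120431697 on the plus strand (ENSMUSG00000022139.17). Of its 17 enriched peaks, 16 lay more than 500 nt from an exon, and of all its 951 clusters 747 did, or 78.5%. No enriched peak lay within 2 kb of the gene's 5′ end, where 21 clusters lay. The 1 kb at chr14:120357412-120358411, 81743 nt into the gene, held 10 of the 17 enriched peaks and 23 of the 951 clusters, or 2.42%. Those 23 clusters had a median log2 fold of 3.12, against 1.30 for the others. At a log2 fold threshold of 2, Mbnl2 had 24 enriched peaks and still none within 2 kb of the 5′ end.

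Enriched peaks in that stretch came from 6 libraries, 2 of them glucagon and 4 control. The site enriched in most libraries, chr14:120358284-120358444, had a log2 fold of 3.18 in glucagon upper band replicate 2 and no cluster in the 3 other glucagon libraries. In control libraries its log2 fold was 4.08 and 4.81 in the upper band and 4.14 and 2.61 in the lower band. All 4 control libraries thus had a cluster in this site and 1 of 4 glucagon libraries did. The glucagon cluster, chr14:120358293-120358341, does not overlap the clusters given for the control lower band. In control upper band replicate 1 it overlaps another enriched peak, chr14:120358284-120358360, with a log2 fold of 3.43. The folds given thus come partly from separate stretches of the site and do not compare the treatments at 1 place. The authors' deposited table for the control upper band gave a peak here, chr14:120358289-120358440, with a log2 fold of 4.41 and a −log10 p of 7.50, and no other deposited list had an Mbnl2 peak. It begins 15807 nt after the nearest exon upstream.

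The second Mbnl2 site by libraries, chr14:120357373-120357553, was enriched in 1 glucagon and 2 control libraries. Its log2 fold was 3.63 in glucagon upper band replicate 2 and 2.01 in glucagon lower band replicate 2, with no cluster in the other glucagon libraries. In control libraries it was 2.49 and 3.12 in the upper band and 2.04 and 3.78 in the lower band. Between these sites, chr14:120357878-120357965 had a cluster in 7 libraries at log2 folds of 1.58 to 3.86 and was enriched in control lower band replicate 2 alone, at 3.61.

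Outside the dense stretch, Mbnl2 had 7 enriched peaks at 7 sites, each in 1 library. They lay 2784 to 76595 nt from the 5′ end, with log2 folds of 3.14 to 4.67. The one with the highest fold, chr14:120291774-120291818, was in glucagon upper band replicate 1, at 4.67, and a peak inside the dense stretch, chr14:120357691-120357750, had the same log2 fold of 4.67 in that library. At each of these, 1 control library had a cluster, with a log2 fold of 2.91 at the first and 3.14 at the second. A further 37 Mbnl2 clusters had a log2 fold of at least 3 but a −log10 p below 3, at most 2.94.

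Mbnl1 carried many clusters and almost no enriched ones. It spans 156.9 kb at chr3:60472830-60629750 on the plus strand (ENSMUSG00000027763.13), and its bounds also hold the gene models Gm37589 and Gm37488 on the same strand. The cluster nearest to its 5′ end lay 28480 nt into the gene, beside an alternative first exon, and the stretch before it held none. The first of its 2 enriched peaks, chr3:60501470-60501527, begins 47 nt after that exon. Its log2 fold was 2.86 and 3.31 in the glucagon upper band and 0.26 in glucagon lower band replicate 2, and 1.17 and 0.84 in the control upper band and 1.93 in control lower band replicate 2. The remaining 2 libraries, lower band replicate 1 of each treatment, had no cluster there. In the upper band both glucagon values lay above both control values, while in the lower band the single glucagon value lay below the control one. Single sites were not tested.

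The second Mbnl1 peak, chr3:60526925-60527052, lay 1140 nt from the nearest exon. Its log2 fold was 2.21 and 2.87 in the glucagon upper band and 1.49 in glucagon lower band replicate 2. In control libraries it was 2.59 and 1.40 in the upper band and 2.40 and 3.35 in the lower band, and the treatments overlapped. In the authors' deposited tables the first peak was listed for the glucagon upper band, with a log2 fold of 3.08, and the second for the control lower band, with 3.14. Mbnl1 had 10 further clusters with a log2 fold of at least 3 that missed the p threshold, at a −log10 p of at most 2.72.

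The thresholds ran through the middle of these values. The lowest log2 fold among enriched peaks was 3.31 in Mbnl1, 3.12 in Mbnl2, 3.10 in Celf1 and 3.26 in Sf1. The highest log2 fold below the threshold among clusters that passed on p was 2.87 in Mbnl1, 2.97 in Mbnl2, 2.84 in Celf1 and 3.00 after rounding in Sf1. Enriched peaks of the 4 genes were 33 to 161 nt long. Of the 21 sites, 5 were enriched in 2 or more libraries, or 23.8%, and these were 2 of 11 in Mbnl2, 2 of 4 in Celf1, 1 of 4 in Sf1 and 0 of 2 in Mbnl1. Over all 19499 sites of the series the share was 31.6%.

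A 5′ placement was common in the series, so that of Celf1 and Sf1 was read against it. In protein-coding genes of at least 10 kb, 18.3% ± 1.94 of enriched peaks lay within 1 kb of the gene's 5′ end, against 5.90% ± 1.30 of all clusters (SD, n = 8 libraries). Within 2 kb the shares were 29.3% ± 2.93 and 8.74% ± 1.49. Celf1 with 9 of 9 within 1 kb lay above these shares, as did Sf1 with 2 of 5 within 1 kb and 5 of 5 within 2 kb. The 9 and 5 peaks fell into 4 sites each. In Sf1, a gene of 14.3 kb, 24.1% of all clusters lay within 2 kb, more than the 8.74% of the series. Mbnl2 with 0 of 17 lay below these shares. Mbnl1 could not be compared, since 0 of its 719 clusters lay within 2 kb of its 5′ end. Counted from any annotated transcript start, 1 of its 2 enriched peaks lay within 1 kb. None of these differences was tested.

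Closeness to exons was compared within each gene. Each share is of all enriched peaks, or of all clusters, of the gene in a library, with those in exons included. In Celf1, 86.7% of enriched peaks lay in introns within 500 nt of an exon, against 10.1% of its clusters. Both are averages over the 5 libraries with enriched peaks. The difference of 76.5 points (SD 27.2, n = 5) had an exact two-sided sign-flip p of 0.0625, the smallest that 5 libraries allow. Counted within 200 nt of an exon, the difference was 40.8 points (exact p = 0.125). The 7 Celf1 peaks within 500 nt of an exon came from 2 sites, enriched in 4 and 3 libraries. The sign flips count a site once for each library that finds it. Their p thus describes agreement among libraries on the same places, not a tendency of separate enriched peaks. In Sf1 the shares were 87.5% and 32.4%, a difference of 55.1 points (SD 33.5, n = 4, exact sign-flip p = 0.125, the smallest possible). Many Sf1 clusters lay in exons, which lowers the second share. Of its intronic clusters over the 8 libraries, 49 lay within 500 nt of an exon and 14 deeper. Its intronic enriched peaks were 4 and 0, and this contrast within introns was not tested. In Mbnl2 the shares were 5.56% and 8.52%, a difference of −2.96 points (SD 12.4, n = 6, exact sign-flip p = 0.594). Mbnl1 had 1 enriched peak in each of 2 libraries. Its shares of 50.0% and 6.96% gave an exact sign-flip p of 1.00 in a design that cannot go below 0.5.

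The question of the treatment comparison is which RNAs PGC-1α binds differently after glucagon. Enriched peaks were counted per gene and per 1000 enriched peaks of the library, and treatments were compared by exact permutation within bands over 36 assignments, with 0.0556 as the smallest possible p. Of all genes, 875 had 8 or more enriched peaks in the 8 libraries and entered the adjustment. Mbnl2 and Celf1 were among them, and Mbnl1 and Sf1 were not. The 2 treatments did not overlap in 11.8% of the 875 genes, 22 with glucagon above and 81 with glucagon below, and no member was among them. The smallest adjusted p over the 875 genes was 0.304, and 0 had an unadjusted exact p under 0.05, which the design does not allow.

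Mbnl2 was the only one of the 4 at the smallest possible p. Every gene whose treatments do not overlap reaches that p, so at least 11.8% of the 875 genes did. The full share was not counted, so reaching it is not read as a trait of Mbnl2. Mbnl2 had 2 and 3 enriched peaks in the glucagon upper band and 0 and 0 in the glucagon lower band, against 3 and 4 in the control upper band and 2 and 3 in the control lower band. The counts were lower with glucagon in each band except that both treatments had an upper band library with 3. Per 1000 enriched peaks of the library this was 0.608 and 0.395 in the glucagon upper band and 0 in both glucagon lower band libraries, against 0.609 and 0.613 in the control upper band and 0.487 and 0.527 in the control lower band. The mean was 0.251 ± 0.302 with glucagon and 0.559 ± 0.0624 in controls (SD, n = 4 each), a difference of −0.308 (exact permutation p = 0.0556, adjusted p = 0.304). It was −0.110 in the upper band and −0.507 in the lower band. As a share of its own clusters, Mbnl2 had 1.19% ± 1.40 enriched with glucagon and 2.06% ± 0.307 in controls (SD, n = 4 each; exact permutation p = 0.278), with a difference of 0.429 points in the upper band and −2.16 points in the lower band.

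The 2 glucagon lower band libraries differed from each other in the enriched share of their clusters. Of all their clusters 3.73% and 1.50% were enriched, against 3.10% and 3.19% in the control lower band. The 3.73% of replicate 1 was the highest of the 8 libraries, and the 1.50% of glucagon lower band replicate 2 was the lowest. That library had 136 Mbnl2 clusters and none enriched, and the part of this in the Mbnl2 difference was not tested. Since both glucagon lower band libraries had 0 enriched Mbnl2 peaks, leaving out either could not move the difference. The p of 0.0556 was not kept with raw numbers (exact permutation p = 0.111), with Neat1 left out of the library total (0.167), or per 1000 clusters (0.278). It was 0.111 without glucagon upper band replicate 2 or without either control upper band library.

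The counts of Celf1 lay in opposite directions in the 2 bands. It had 1 and 3 enriched peaks in the glucagon upper band and 0 and 0 in the glucagon lower band, against 1 and 0 in the control upper band and 2 and 2 in the control lower band. Per 1000 enriched peaks the mean was 0.175 ± 0.205 with glucagon and 0.260 ± 0.209 in controls (SD, n = 4 each; exact permutation p = 0.667, adjusted p = 0.875). Within bands, the difference was 0.248 in the upper band and −0.419 in the lower band, and in neither band did the treatments overlap. The treatments were apart in opposite directions in the 2 bands in 4.69% of the 875 genes.

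Sf1 and Mbnl1 had few enriched peaks in either treatment. Sf1 had 1 and 0 in the glucagon upper band and 0 and 1 in the glucagon lower band, against 0 and 2 in the control upper band and 1 and 0 in the control lower band. Its mean per 1000 was 0.165 ± 0.191 with glucagon and 0.137 ± 0.161 in controls (SD, n = 4 each; exact permutation p = 0.944). Mbnl1 had 1 in the glucagon upper band and 1 in the control lower band, with a mean per 1000 of 0.0329 ± 0.0658 with glucagon and 0.0439 ± 0.0878 in controls (exact permutation p = 1.00). Neither difference exceeded the spread between libraries.

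**Figure D4:**
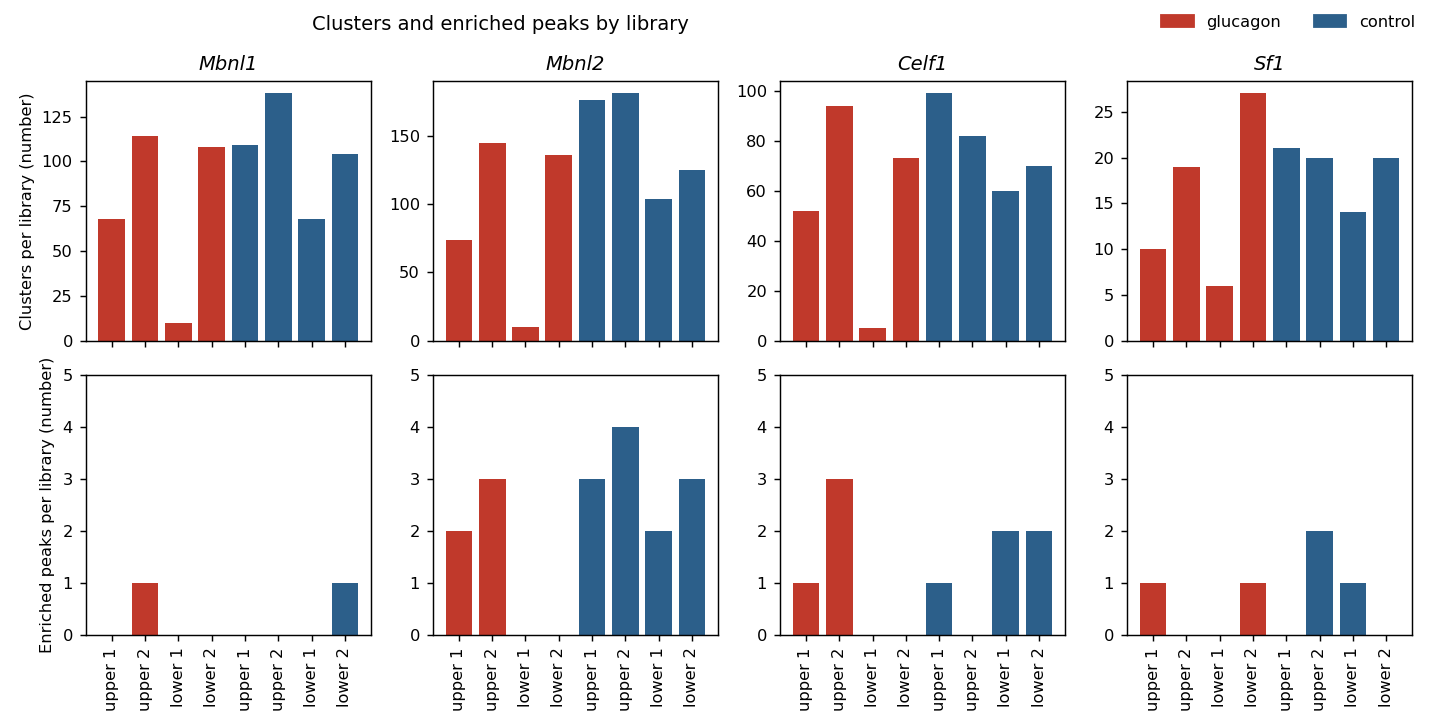
Number of clusters (top) and of enriched peaks (bottom) of each gene in each library, glucagon in red and control in blue, upper band left of lower band. The glucagon lower band libraries had 0 enriched peaks in Mbnl1, Mbnl2 and Celf1 and 1 in Sf1, while Mbnl2 had 2 to 4 in every other library.

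Between bands, Mbnl2 again had the largest difference of the 4 genes. The groups did not overlap in 7.54% of the 875 genes, 44 with the upper band above and 22 with it below, and again no member was among them. Mbnl2 had a mean of 0.556 ± 0.108 per 1000 enriched peaks in the upper band and 0.253 ± 0.293 in the lower band (SD, n = 4 each), a difference of 0.303 (exact permutation p = 0.0556, the smallest possible; adjusted p = 0.412). The difference was 0.501 in glucagon libraries and 0.104 in control libraries. Every gene whose bands do not overlap also reaches the smallest possible p, so at least 7.54% of the 875 genes did. The full share was not counted. Celf1 averaged 0.225 ± 0.169 in the upper band and 0.209 ± 0.248 in the lower band (exact permutation p = 0.889, adjusted p = 0.997). Sf1 averaged 0.153 ± 0.176 in the upper band and 0.150 ± 0.179 in the lower band (exact permutation p = 1.00), and Mbnl1 0.0329 ± 0.0658 in the upper band and 0.0439 ± 0.0878 in the lower band (exact permutation p = 1.00).

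Clusters of any fold were steadier than enriched peaks. Per 1000 clusters of the library, Mbnl2 had 0.758 and 0.698 in the glucagon upper band and 0.381 and 0.723 in the glucagon lower band, against 0.733 and 0.694 in the control upper band and 0.784 and 0.701 in the control lower band. The low value came from glucagon lower band replicate 1 with 10 Mbnl2 clusters. Mbnl1 ranged from 0.381 to 0.697 with glucagon and from 0.454 to 0.583 in controls, Celf1 from 0.190 to 0.533 with glucagon and from 0.314 to 0.452 in controls, and Sf1 from 0.0915 to 0.228 with glucagon and from 0.0767 to 0.112 in controls. With the bands pooled the treatments overlapped in all 4 genes. Within bands they were apart in Sf1, which had 0.102 and 0.0915 in the glucagon upper band and 0.228 and 0.144 in the glucagon lower band, against 0.0875 and 0.0767 in the control upper band and 0.106 and 0.112 in the control lower band. Glucagon libraries lay above in both bands in this way in 8.32% of the 3628 genes with 100 or more clusters, and below in 13.1%. Celf1 was above with glucagon in the upper band and below in the lower band, and Mbnl1 was above in the upper band alone. How many of the 3628 genes show either arrangement was not counted, so neither is read as a trait of the gene.

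Among other genes, the pattern of enriched peaks over the 8 libraries most like that of Mbnl2 was seen in Gm28499, Magi3 and Baz2a, with Pearson correlations of 0.97, 0.97 and 0.96 of the log2 of enriched peaks per 1000 plus 0.5. For Celf1, Myo9b had 0.95 and Gm45779 had 0.93. The 8 points of each are the same libraries with the same totals, the genes had 10 to 24 enriched peaks each, and the values are a description. Of the 875 genes, 30.3% had 0 enriched peaks in both glucagon lower band libraries, as Mbnl2 and Celf1 had.

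The paralogs of these genes were barely seen. Of Mbnl3, Celf2, Celf3, Celf4, Celf5 and Celf6, Celf2 had 59 clusters and the others 0, and none had an enriched peak. SF1 works with U2AF at the 3′ end of introns before the U2 snRNP takes its place at the branch point. All 20 other branch point and U2 snRNP factor genes had clusters, and 4 had enriched peaks, namely U2af1 and U2af2, which encode the U2AF subunits, with 2 each, and Sf3b3 and Ddx46 with 1 each. None of the 20 had a listed peak, and in the 7 with 100 or more clusters the median enriched share was 0.529%, against 3.65% in Sf1 and 0.581% in the median gene.

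Some other splicing regulators reached higher counts. Of 30 such genes, 21 had clusters, 13 had enriched peaks and 6 had listed peaks, and the median enriched share of the 14 with 100 or more clusters was 0.568%. Rbpms, an RNA-binding protein gene, had 154 enriched and 67 listed peaks. Ptbp1 and Ptbp3, which encode polypyrimidine tract binding proteins, had 25 and 19 enriched peaks with 7 and 5 listed. Rbm47, which encodes a cofactor of APOBEC1 in mRNA editing, had 22 with 5 listed, and Zcchc24 had 25 with 3 listed. Rbms1 had 21 enriched peaks in glucagon libraries and 0 in control libraries, and was the only one of the 6 tested whose treatments did not overlap (exact permutation p = 0.0556, adjusted p = 0.304), beside 11.8% of all 875 genes.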

How the data were processed

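The 8 immunoprecipitated libraries have 1 peak file each, and 1 reproducible list per group was also deposited; inputs were not analysed here. The submitters' processing notes name cutadapt, STAR and the mm10 build, without versions; the peak caller is not given in the sources used here. The deposited files have no header; from their values, column 4 is the authors' −log10 p-value against input, with a ceiling of 400, and column 5 a log2 fold over input deposited by the authors.

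Clusters were placed by midpoint and strand with GENCODE M21 annotation, in coding sequence, UTR, noncoding exon or intron. Where several clusters of a library overlapped a site, the one with the highest log2 fold was taken. Enriched peaks per gene were compared between treatments within bands, and between bands within treatments, by exact two-sided permutation with Benjamini-Hochberg adjustment over 875 genes. The share of enriched peaks in introns near exons was compared with that of all clusters by exact sign flips over libraries. The permutation was tested on simulated data. The groups came from the sample titles. Read depth is unknown, and intervals cover counting error only.

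The 4 genes, the gene lists and the tests were chosen with earlier results of these data known. Text names all 4 genes, their sites by number of libraries then fold, up to 3 genes most like Mbnl2 and Celf1 over libraries (1 gene that this takes is not reported here), all paralogs, regulators with listed peaks (a tie for the last place kept both), and U2 factors with enriched peaks, the last chosen after their values were seen. Alternatives covered the fold and p thresholds, scaling, overlap rule, each library left out and a replicate block. A planned motif search in intronic peaks was not run because no genome sequence was used here. Computations ran in Python 3.11.15 with scipy 1.17.1, pandas 2.3.3 and numpy 2.4.6, and figures in matplotlib 3.10.9.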

Additional observations from a re-analysis of the deposited data

Results flagged for a closer look

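For enriched peaks of Celf1, glucagon and control libraries lay apart in opposite directions in the 2 bands. Per 1000 enriched peaks of the library, the difference of glucagon minus control was 0.248 in the upper band and −0.419 in the lower band. Every glucagon upper band library, at 0.304 and 0.395, lay above both control upper band libraries, at 0.203 and 0. Both glucagon lower band libraries, at 0, lay below both control lower band libraries, at 0.487 and 0.351. The 2 effects differed by 0.667 (exact permutation p = 0.0556 over 36 assignments). Libraries that lie apart in this way give that p, the smallest possible, by their arrangement alone, so it adds nothing to it, and the difference did not pass 0.05. The same arrangement was seen in 4.69% of the 875 genes with 8 or more enriched peaks. It rests on 0 to 3 Celf1 peaks per library, and the cause was not tested. The other 3 genes gave band differences of 0.154 for Mbnl1, 0.397 for Mbnl2 and −0.0571 for Sf1, with exact permutation p of 0.5, 0.333 and 0.722.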

How the results depend on the processing

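Of 231 results under alternatives, 190 kept their direction and their side of the threshold, 32 reversed, 6 moved and 3 crossed to p under 0.05. Some of the 190 could not have changed, so their number is no measure of robustness. A replicate block cannot move a difference. Leaving out a library without enriched peaks of the gene cannot move its exon-closeness difference. The glucagon and band differences of Mbnl2 and the glucagon difference of Celf1 kept their direction under every alternative run. The smallest exact permutation p of any treatment or band comparison was 0.0556, the smallest the design allows. For the Mbnl2 glucagon difference p was 0.0556 to 0.5 over the alternatives.

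For the difference of glucagon minus control in enriched peaks per 1000, Mbnl1 changed to 0.0632 at a log2 fold of at least 2 and to 0 at a log2 fold of at least 4 and with raw numbers. Sf1 changed to −0.0636 and −0.197 at log2 folds of at least 2 and 4, and to −0.250 with raw numbers. For upper minus lower band, Mbnl1 changed to 0.110 at a log2 fold of at least 2 and to 0 at 4 and with raw numbers, Celf1 to −0.157 at 4, and Sf1 to −0.197 at 4 and −0.00289 without Neat1 in the library total. For the enriched share of a gene's own clusters, Mbnl1 changed to 0.704 points at a log2 fold of at least 2 and 0 at 4, and Sf1 to 0 at a −log10 p of at least 5. For closeness to exons, Mbnl1 reversed to −8.65 points at a −log10 p of at least 5. With introns within 200 nt, Mbnl2 gave −2.72 points (exact p = 0.0312), Celf1 40.8 points (exact p = 0.125) and Sf1 46.8 points (exact p = 0.250), and at a log2 fold of at least 2 Celf1 gave 75.9 points (exact p = 0.0156) and Sf1 38.6 points (exact p = 0.0469). These sign-flip p-values also count a site once for each library that finds it. The cause was not tested.

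Leaving out each library in turn, glucagon minus control per 1000 ranged from −0.0549 to 0.0329 for Mbnl1, −0.362 to −0.255 for Mbnl2, −0.136 to −0.0348 for Celf1 and −0.0614 to 0.116 for Sf1. Upper minus lower band ranged from −0.0549 to 0.0329 for Mbnl1, 0.249 to 0.356 for Mbnl2, −0.0348 to 0.0667 for Celf1 and −0.0857 to 0.0919 for Sf1. The own-share difference ranged from −0.261 to 0.219 points for Mbnl1, −1.02 to −0.708 for Mbnl2, −0.839 to −0.204 for Celf1 and −3.36 to 1.64 for Sf1. The exon-closeness difference ranged from −8.65 to 94.7 points for Mbnl1, −7.82 to −0.855 for Mbnl2, 72.8 to 88.7 for Celf1 and 48.8 to 71.8 for Sf1.

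The labels do not say whether replicate numbers pair the libraries. Deviations of same-numbered libraries correlated at 0.04 and 0.08 between treatments and 0.02 and 0.09 between bands over 875 genes. With 2 libraries per group and few enriched peaks per gene, such low values cannot decide whether libraries were paired. A replicate block cannot move a difference in this balanced design and allows no smaller p than 0.125 over 16 assignments. With it, glucagon minus control was −0.308 for Mbnl2 (exact permutation p = 0.125) and −0.0855 for Celf1 (0.875).

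The number of enriched peaks depended on the thresholds. At log2 folds of at least 2 and 4, Mbnl1 had 6 and 0, Mbnl2 24 and 7, Celf1 22 and 1, and Sf1 21 and 1; at a −log10 p of at least 5 they had 1, 5, 6 and 3. Leaving out glucagon lower band replicate 1, a choice made after seeing the data, cannot change these numbers, since it held 0 enriched peaks in the 4 genes. The files give no read counts, so depth limits could be judged from cluster numbers alone. A planned motif search was not run.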

Other observations

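The deposited values of enriched peaks recurred. All 33 enriched peaks of the 4 genes had a pair of log2 fold and −log10 p that another cluster of the same library also had, and so did 32282 of all 35942 enriched peaks, or 89.8%, with 82.6 to 92.3% in single libraries. The 2 enriched Celf1 peaks of control lower band replicate 1, at chr2:90940704-90940769 and chr2:90940932-90940994, both had 3.14 and 4.25. The 2 enriched Mbnl2 peaks of glucagon upper band replicate 1, which lie at chr14:120291774-120291818 and chr14:120357691-120357750, both had 4.67 and 3.84.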
